A study of Mus musculus with 38 samples.

Results

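The interferon-inducible GTPases are 2 families of large, membrane-associated GTP-binding proteins, the guanylate binding proteins (Gbp) and the immunity related GTPases (Irg). The genes were taken from the table by symbol, and all 10 members were among its 13260 genes: Gbp2, Gbp3, Gbp6, Gbp7, Irgm1, Irgm2, Igtp, Iigp1, Ifi47 and Gm4951. RNA-Seq had been performed on 38 libraries of 100 sorted cells each from C57Bl/KaLwRijHsd mice, 8 to 10 weeks old at inoculation, which received PBS vehicle (healthy) or 1000000 5TGM1-GFP cells (myeloma-bearing) intravenously and were culled on day 23. 5TGM1 is a mouse myeloma line, here labelled with green fluorescent protein, and this syngeneic model was used by the study to ask how myeloma alters gene expression in the cells that line bone. Niche cells were sorted as CD45- and Ter119-, a gate meant to leave out blood cells. The niche groups were endothelial cells (CD31+) of healthy mice (5 libraries, C, L, M, N and O) and of myeloma-bearing mice (5 libraries, D, E, G, I and J), stromal progenitors (Sca1+ ALCAM-; 5 libraries of each condition with the same letters) and osteoprogenitors (ALCAM+ Sca1-; 4 healthy libraries, L, M, N and O, and 4 from myeloma-bearing mice, D, G, I and J). GFP+ myeloma cells made up 5 libraries from the bone lining and 5 from the central bone marrow, with the letters D, E, G, I and J. All myeloma cells came from 1 cell line, and the labels leave it unsaid whether each letter is one mouse, so p-values measure only the spread between these libraries.

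The members lie in 4 parts of the genome. In the GENCODE M21 annotation of GRCm38, Gbp7 (chr3:142530342-142550149), Gbp3 (chr3:142560026-142573209) and Gbp2 (chr3:142620602-142638008) follow one another on the plus strand of chromosome 3, and Gbp6 (chr5:105270702-105293698, minus strand) lies in a second cluster. Irgm1 (chr11:48861968-48871683, minus strand), Ifi47 (chr11:49076587-49096974), Igtp (chr11:58199556-58207591) and Irgm2 (chr11:58199618-58222782) are on chromosome 11. Gm4951 (chr18:60212080-60247820) and Iigp1 (chr18:60376027-60392634) both lie on the plus strand of chromosome 18, and all 10 are annotated as protein coding. Igtp and Irgm2 share 162 exonic bases in this annotation, Gbp6 shares 1726 with Gm43302, Gbp7 637 with Gm43802, and Ifi47 217 with Olfr56 and Gm12188. Counting was by symbol on another transcript set with no strand stated, and these families hold near-identical copies, so the reads of neighbouring or closely related members cannot be fully told apart.

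As background, interferons signal through paired receptors and JAK kinases to transcription factors that bind 2 kinds of promoter element. The interferon-stimulated response element (ISRE) is bound by complexes that hold IRF proteins, and the gamma-activated site (GAS) is the element of genes that respond to interferon gamma. The products, GBPs and IRGs, are known for coating and disrupting the vacuoles of intracellular pathogens. Within the IRG family, Irgm1, Irgm2 and Igtp (also called Irgm3) are regulators that sit on host membranes and hold the effectors, such as Iigp1 (Irga6) and Ifi47 (Irgd), in an inactive state there.

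The promoter sequence is shown for members whose RefSeq window holds an ISRE core, because this core was found in most of the windows at hand. RefSeq windows of GRCm38.p6, from 250 bases before to 50 after each transcript start, were at hand for 7 of the 10 members, and the ISRE core (GAAA, any 2 bases, then GAAA), searched on both strands, was present in 6 of these 7, against 3.99% of 27025 genes (3.44% of 32851 windows). The GAS core TTCNNNGAA, which reads the same on both strands, was present in 3 of the 7, against 9.55% of genes. Of 9 other GTPase genes of these families and Mx with a window, 6 held the ISRE core and 4 the GAS core. A match is a description of the letters and not of a bound site. The 110 bases before the start are printed 5′ to 3′ on the strand of the gene, with ISRE and GAS cores in capitals, for Gbp2 (chr3:142620553-142620662, plus strand), Gbp3 (chr3:142559934-142560043, plus strand), Gbp7 (chr3:142530226-142530335, plus strand), Irgm1 (chr11:48871421-48871530, minus strand), Igtp (chr11:58199446-58199555, plus strand) and Irgm2 (chr11:58214867-58214976, plus strand):
Gbp2: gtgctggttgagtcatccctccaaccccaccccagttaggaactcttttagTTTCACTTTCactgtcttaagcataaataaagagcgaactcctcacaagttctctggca
Gbp3: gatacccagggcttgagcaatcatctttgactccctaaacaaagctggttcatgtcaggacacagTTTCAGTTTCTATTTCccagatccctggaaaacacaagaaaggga
Gbp7: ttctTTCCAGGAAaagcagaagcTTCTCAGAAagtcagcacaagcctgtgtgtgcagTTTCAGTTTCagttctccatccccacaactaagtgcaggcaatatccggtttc
Irgm1: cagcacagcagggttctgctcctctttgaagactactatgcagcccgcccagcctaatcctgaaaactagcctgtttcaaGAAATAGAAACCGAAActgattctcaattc
Igtp: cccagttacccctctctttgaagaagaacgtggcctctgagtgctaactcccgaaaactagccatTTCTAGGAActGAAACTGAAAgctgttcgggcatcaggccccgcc
Irgm2: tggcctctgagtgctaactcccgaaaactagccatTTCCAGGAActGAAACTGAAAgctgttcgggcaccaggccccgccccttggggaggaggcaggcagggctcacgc

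The ISRE core began between 30 and 64 bases before the start when the first match of each gene is taken. Read on the motif strand, the same 10 bases, GAAACTGAAA, were present in Gbp3, Gbp7, Igtp and Irgm2, and in 0.231% of all windows. Gbp2 held GAAAGTGAAA. Gbp3 and Irgm1 each had a pair of overlapping cores that span 16 bases, GAAATAGAAACTGAAA in Gbp3 and GAAATAGAAACCGAAA in Irgm1, which are identical at 15 of 16 positions although Gbp3 carries its run on the opposite strand. A second RefSeq start of Gbp3 has a window with neither core, which is not printed or plotted. The windows of Igtp and Irgm2 were identical at 184 of 270 bases when offset by 30, with a longest shared run of 61. The window of Ifi47 held neither core, and no window was at hand for Gbp6, Iigp1 and Gm4951.

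**Figure D1:**
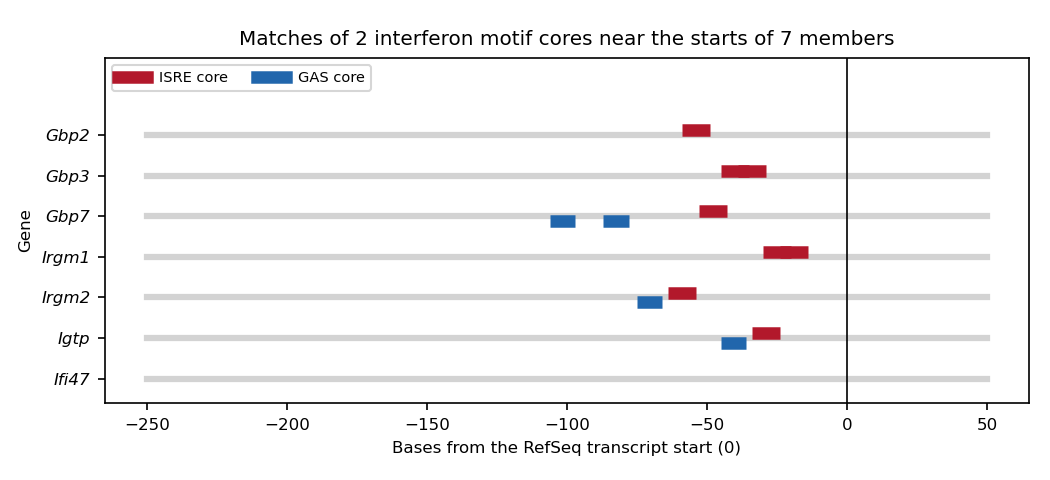
Positions of ISRE core (red) and GAS core (blue) matches, in bases from the RefSeq transcript start on the x axis, for the 7 members with a window (grey lines, 250 bases before to 50 after). The ISRE cores of 6 members lie within 64 bases before the start, and Ifi47 has no match.

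The libraries were checked against the markers of their sorts. Summed RPKM (reads scaled to gene length and library size) of 7 endothelial markers was 2057 to 4384 in endothelial libraries and at most 29.7 in every other library, with Cdh5 at most 2.39 RPKM outside endothelial cells. The 10 osteoprogenitor markers summed to 8349 to 64512 in osteoprogenitors and at most 1328 elsewhere, and the 9 myeloma and plasma cell markers in the table summed to 3506 to 10136 in myeloma cells and at most 35.6 in niche libraries. Ly6a (Sca1) dominated the stromal list and was higher in endothelial cells than in stromal progenitors, so that list does not set stromal progenitors apart. In 2 stromal progenitor libraries, healthy L and myeloma-bearing E, the 5 neutrophil markers in the table summed to 7273 and 8119 RPKM, against at most 162 in any endothelial or osteoprogenitor library. Reads on genes ranged from 9735031 to 34883291 a library.

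In myeloma-bearing mice, endothelial cells were the niche cells with the highest mean of each member. In healthy mice this did not hold for Irgm1, with a mean log2(RPKM + 1) of 2.38 in endothelial cells and 3.86 in osteoprogenitors. For 10 of 10 members the group with the highest mean log2(RPKM + 1) was endothelial cells of myeloma-bearing mice, and for 7 of 10 the next was endothelial cells of healthy mice. Over the 70 pairs of neighbouring groups in these orders, 3 had libraries whose ranges did not overlap: Gm4951 between endothelial cells of myeloma-bearing and of healthy mice, Gbp7 between healthy endothelial cells and stromal progenitors of myeloma-bearing mice, and Ifi47 between osteoprogenitors of myeloma-bearing and of healthy mice. The libraries of the remaining neighbours overlapped, in some cases through 1 library, and these neighbours were not tested. The orders were set by these same values, so no share over all genes stands beside the 3 of 70. For the Gm4951 and Ifi47 pairs, 0.571% and 1.34% of genes tested had ranges apart in the same direction. In bulk libraries of sorted cells, fewer cells carrying a transcript and less RNA in each cell cannot be told apart.

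**Figure D2:**
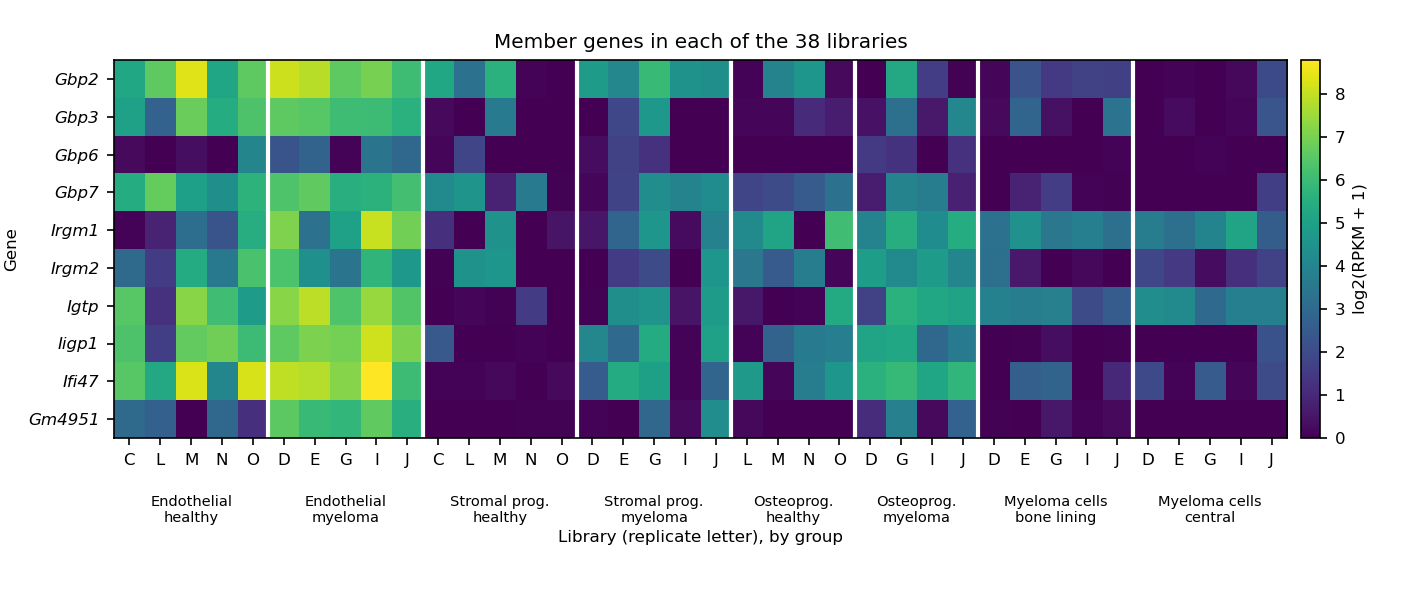
Level of each member (rows) in each of the 38 libraries (columns, grouped, with replicate letters), as log2(RPKM + 1) in colour. The endothelial columns are bright for most members, and those of healthy stromal progenitors are mostly dark, whereas stromal progenitor libraries E, G and J of myeloma-bearing mice have 9, 10 and 8 members above 1 RPKM.

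Healthy endothelial cells were compared with healthy stromal progenitors by limma on log2(RPKM + 1). A gene was tested if 4 or more of these libraries exceeded 1 RPKM, and it was called if its Benjamini-Hochberg adjusted p was under 0.1 with a log2 difference of more than 1 in size. Members called higher in endothelial cells were 7 of the 9 tested, and none was lower, against a background of 6.69% of 8457 genes called higher and 10.6% lower. Gbp6 did not pass the filter. Ifi47, an effector IRG, showed the largest of these differences. It passed the filter through the endothelial libraries alone, which set its direction. It measured 89.7, 38.9, 313, 15.6 and 311 RPKM in healthy endothelial libraries C, L, M, N and O, and 0.0504, 0.0582, 0.138, 0.0228 and 0.156 in the stromal progenitor libraries of the same letters. The groups were fully apart, with at most 7 reads in any stromal library, and the difference was 6.37 ± 0.93 (log2, SE; limma adjusted p = 0.00032).

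Iigp1, the effector that loads onto vacuole membranes, was 4.99 ± 1.08 higher (log2, SE; limma adjusted p = 0.0062), at 80.3, 2.08, 101, 119 and 64.4 RPKM in healthy endothelial libraries against 4.45 in stromal library C and at most 0.0733 in the other 4. Igtp, a regulator, was 4.83 ± 1.09 higher (limma adjusted p = 0.0079), although its endothelial library L was at 1.38 RPKM and its stromal library N at 1.92, so that the groups overlapped. Among the GBPs the differences were 4.52 ± 1.03 for Gbp3, 3.57 ± 1.17 for Gbp2 and 2.78 ± 0.99 for Gbp7, and Gm4951 differed by 1.96 ± 0.66 (limma adjusted p = 0.0083, 0.059, 0.082 and 0.067). The regulators Irgm1 (1.16 ± 1.14) and Irgm2 (2.14 ± 1.26) did not pass the test. Only Ifi47 of the 9 had ranges that did not overlap, against 4.67% of all genes tested in that direction. Ifi47 and Gm4951 exceeded 1 RPKM in no healthy stromal progenitor library. They passed the filter through the endothelial libraries in which they are high, which set their direction. Without the filter 5 of 10 members were called, Gbp3, Gm4951, Ifi47, Igtp and Iigp1, against 3.64% of 12964 genes higher. By voom-limma of the recovered reads 4 members were called, against 5.66% of genes higher, and on all 38 libraries 8 of 10, against 7.5%. When each of the 10 libraries was left out in turn, Gbp3, Ifi47, Igtp and Iigp1 were called every time, Gbp2 in 6 refits, Gbp7 in 3 and Gm4951 in 1, and those 4 were the only members called without healthy endothelial library O or healthy stromal progenitor library N or O.

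Against healthy osteoprogenitors, 3 of 9 members tested were called higher in healthy endothelial cells and none lower, with 6.67% of 8258 genes called higher and 9.81% lower. Gm4951, at most 0.148 RPKM in healthy osteoprogenitors, was tested through the endothelial libraries alone, and without the filter 3 of 10 members were called, against 3.59% of 13012 genes. All 3 were GBPs of the chromosome 3 cluster: Gbp3 differed by 4.78 ± 0.97, Gbp2 by 4.20 ± 1.13 and Gbp7 by 3.02 ± 0.79 (log2, SE; limma adjusted p = 0.0052, 0.027 and 0.024). The same 3 had ranges that did not overlap, against 5.86% of genes. Gbp3 was at 31.5, 5.87, 110, 42.4 and 80.2 RPKM in the endothelial libraries and 0.119, 0.09, 1.08 and 0.577 in osteoprogenitor libraries L, M, N and O. Ifi47 (3.2 ± 1.16, limma adjusted p = 0.102) and Gm4951 (1.92 ± 0.70, adjusted p = 0.103) were just outside the threshold. Irgm1 was the 1 member with a value on the other side, at -1.48 ± 1.41, with osteoprogenitor libraries at 17.5, 34.2, 0 and 67.8 RPKM. With all 38 libraries in 1 fit 7 members were called here (10.9% of genes higher), and 1, Gbp3, by voom-limma of the recovered reads (3.84%), with 4 by voom-limma on all 38 libraries (5.75%). Leaving out each of the 9 libraries in turn kept the call of Gbp3 in 9 refits, of Gbp2 in 8 and of Gbp7 in 6, with 2 members called without healthy osteoprogenitor library L and 6 without healthy endothelial library L.

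Other genes of the pathway were counted from lists, to be read against the shares of all genes called above: 6.69% higher and 10.6% lower against stromal progenitors, and 6.67% and 9.81% against osteoprogenitors. Of 22 other GTPases of these families and Mx, 13 were in the table. In healthy endothelial cells against healthy stromal progenitors 3 were tested and 3 were called higher, Gbp4 (6.15 ± 0.80), Gbp9 (5.22 ± 0.81) and Tgtp1 (2.31 ± 0.73). These 3 were at most 0.0716 RPKM in healthy stromal progenitors and passed the filter through the endothelial libraries alone, so that their direction was set by the filter. Against healthy osteoprogenitors 2 of 4 were, Gbp4 (5.74 ± 0.89) and Gbp9 (5.06 ± 0.88), of which Gbp9, at most 0.578 RPKM in osteoprogenitors, passed through the endothelial libraries alone. Jak1, a kinase of both interferon receptors, was called higher in both comparisons (1.82 ± 0.55 and 2.09 ± 0.58), as 1 of 7 and, with Ifnar2 (1.82 ± 0.65), as 2 of 6 receptor and kinase genes. Of the STAT and IRF genes, Stat2 (2.86 ± 0.92) and Irf1 (2.05 ± 0.65) were called higher against stromal progenitors, 2 of 8 tested, and 0 of 9 against osteoprogenitors. Of the feedback genes 1 of 7 was called against stromal progenitors, Usp18, higher at 3.56 ± 1.29, and 0 of 7 against osteoprogenitors. The effector partners, proteins that act with GBPs and IRGs at vacuoles and inflammasomes, went both ways, with 2 of 12 and 3 of 14 tested called. Lgals3, a galectin that binds damaged vacuoles, was called lower in endothelial cells in both comparisons (-8.73 ± 0.85 and -7.99 ± 1.0). Casp1 was called higher in both (5.03 ± 1.35 and 4.78 ± 1.5) and Lgals8 higher against osteoprogenitors (2.21 ± 0.80). Casp1 was at most 0.583 RPKM in healthy stromal progenitors and passed that filter through the endothelial libraries alone, which set its direction there.

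Myeloma-bearing and healthy mice were then compared within each niche cell type. In endothelial cells the 10 members all had a positive log2 difference, with a median of 1.23 beside 0.07 for all genes tested, but limma called 0 of 10, and 0.0% of 7880 genes overall. At an unadjusted p under 0.05 there were 2 members and 414 genes. With all 38 libraries in 1 limma fit, 2 members were called (Gm4951 and Irgm1) against 2.09% of genes called higher. With voom-limma on all 38 libraries it was 1 (Gm4951) against 1.4%, and on the 10 endothelial libraries 0 against 0.0354%.

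Gm4951, a predicted gene of the IRG family on the same chromosome as Iigp1, had the largest difference. It measured 7.22, 5.44, 0, 6.88 and 1.32 RPKM in endothelial libraries C, L, M, N and O of healthy mice and 94.9, 61.0, 55.3, 99 and 45.9 in libraries D, E, G, I and J of myeloma-bearing mice. Every library of myeloma-bearing mice was above every healthy library, a separation that 0.571% of genes tested showed in this direction, and Gm4951 was the only member that showed it. The means were 4.17 ± 3.31 and 71.2 ± 24.1 RPKM (SD, n = 5 each), and the log2 difference was 4.13 ± 0.95 (SE, 95% interval 2.13 to 6.12) with an unadjusted limma p of 0.00035 and an adjusted p of 0.559. It stayed between 3.63 and 4.39 when each library was left out in turn.

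Irgm1, the regulator that controls the other IRGs on host membranes, was at 0.0519, 0.843, 7.98, 3.89 and 44.0 RPKM in endothelial libraries of healthy mice and 135, 8.93, 32.1, 266 and 122 in those of myeloma-bearing mice. The groups overlapped through healthy library O and myeloma-bearing libraries E and G. The log2 difference was 3.71 ± 1.17 (95% interval 1.26 to 6.16, limma unadjusted p = 0.0050, adjusted p = 0.821). For the other 8 members the log2 difference ran from 0.63 (Gbp7) to 1.89 (Igtp), and each 95% interval included 0. Igtp, Iigp1 and Ifi47 were already at 27.6 or more, 64.4 or more and 15.6 or more RPKM in healthy libraries other than L, in which Igtp and Iigp1 were at 1.38 and 2.08.

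In stromal progenitors the members with the largest log2 differences were Ifi47, Iigp1 and Igtp, with libraries of myeloma-bearing mice spread widely and no call. Of 7 members that passed the filter limma called 0, as it did for all 8747 genes (0.0%). At an unadjusted p under 0.05 there were 3 members and 437 genes. On all 38 libraries limma and voom-limma called 0 members, against 0.252% and 0.37% of genes called higher. Ifi47 was at most 0.156 RPKM in the 5 healthy libraries and measured 4.94, 41.4, 31.3, 0.0598 and 6.34 in libraries D, E, G, I and J of myeloma-bearing mice. Library I alone stayed within the healthy range, and Ifi47 passed the filter through the other 4 libraries of myeloma-bearing mice, which set its direction. The log2 difference was 3.07 ± 0.96 (limma unadjusted p = 0.0049, adjusted p = 0.811).

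Iigp1 was at 4.45, 0.0188, 0.0149, 0.0733 and 0.0143 RPKM in healthy libraries C, L, M, N and O and at 16, 7.12, 41.6, 0.0514 and 31.5 in libraries D, E, G, I and J of myeloma-bearing mice, a difference of 3.0 ± 1.05 (log2, SE; limma adjusted p = 0.83). Igtp was at most 1.92 RPKM in healthy libraries and at 0.0362, 19.7, 22.3, 0.377 and 27.9 in those of myeloma-bearing mice, a difference of 2.50 ± 1.02 (limma adjusted p = 0.915). For both, library I lay within the healthy range, and for Igtp library D did too. Gm4951, which did not pass the filter, had at most 2 reads in any healthy library and 2, 0, 290, 11 and 890 in D, E, G, I and J, where 290 and 890 reads were 6.55 and 19.0 RPKM.

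The GBPs of stromal progenitors were spread across both conditions. Gbp2 was at 36.8, 8.64, 48.6, 0.056 and 0 RPKM in healthy libraries and at 28.1, 16, 60.4, 21.9 and 19.9 in those of myeloma-bearing mice, a difference of 1.91 ± 1.07 (log2, SE), and Gbp7 differed by 0.24 ± 1.15. Irgm2 was at 21.9 and 23.4 RPKM in healthy libraries L and M and 23.9 in myeloma-bearing library J, and its difference of -0.17 ± 1.19 turned to 0.34 with a pseudocount of 0.1 and to 1.18 with voom-limma. No member had ranges that did not overlap, against 0.354% of genes tested. Over all 10 members, without the filter, the median log2 difference was 1.35 beside 0.01 for all genes. By voom-limma on all 38 libraries this median was 3.72 beside 0.09. Excluding healthy library L and myeloma-bearing library E, which held the neutrophil markers although the sort excluded CD45+ cells, left 4 members past the filter. Of these 0 were called, with Iigp1 at 3.0, and Ifi47, Igtp and Irgm2 no longer passed the filter. The part of cells with these markers in the values was not otherwise tested.

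In osteoprogenitors the ranges of Irgm2 and Ifi47 did not overlap among the members that passed the filter. Ifi47 measured 25.3, 0.0787, 12.1 and 23.5 RPKM in healthy libraries L, M, N and O and 47.8, 59.2, 36.4 and 54.6 in libraries D, G, I and J of myeloma-bearing mice. Irgm2 measured 10.1, 4.75, 11.9 and 0.124 RPKM in the healthy and 29.0, 17.5, 27.8 and 15.4 in the myeloma-bearing libraries. For both genes every library of myeloma-bearing mice was above every healthy library, as it was for 1.34% of the 8664 genes tested. The log2 differences were 2.35 ± 0.91 for Ifi47 and 2.04 ± 0.90 for Irgm2 (limma adjusted p = 0.981 for each). With 1 library left out they ran from 1.29 to 2.82 for Ifi47 and from 1.27 to 2.44 for Irgm2. Markers of other cells also differed between these libraries: Lyz2 was 0 in every healthy and 0 to 179 RPKM in the myeloma-bearing libraries, Cd68 was 9.43 to 40.5 and 2.31 to 120 RPKM, and Cd14 14.5 to 93 and 1.18 to 64.9 RPKM. Emr1 and C1qb were at 0 in all 8 libraries and Csf1r at most 0.421 RPKM, and the neutrophil markers summed to 38.2 to 93.1 RPKM in healthy and 0.304 to 47.4 in myeloma-bearing mice. Their part in the result was not tested.

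Igtp in osteoprogenitors was at 0.464, 0, 0.061 and 40.7 RPKM in healthy mice and 2.24, 48.4, 37.7 and 32.8 in myeloma-bearing mice. Healthy library O overlapped the other group, and the difference was 2.91 ± 1.3 (log2, SE; 95% interval 0.15 to 5.68, limma adjusted p = 0.981). Gbp2 and Gbp7 had values on the other side of 0, -0.47 ± 1.36 and -0.12 ± 1.02, and Irgm1 was at 0.92 ± 1.08, which became -0.36 without healthy library N, where it had no read. Limma called 0 of the 7 members tested, against 0.0115% of genes called higher. At an unadjusted p under 0.05 there were 3 members and 422 genes. On all 38 libraries limma and voom-limma called 0 members, against 0.0808% and 0.158% of genes called higher. Gbp6, at most 1 read in any healthy library, had 81, 113, 0 and 72 reads in D, G, I and J (1.85, 1.42, 0 and 1.36 RPKM), and Gm4951 had at most 5 reads in the healthy and 31, 638, 7 and 189 in the myeloma-bearing libraries, and neither passed the filter. The ranges of Gm4951, 0 to 0.148 RPKM in healthy and 0.166 to 13.1 RPKM in myeloma-bearing mice, did not overlap either, although the lowest myeloma-bearing library held 7 reads. Over all 10 members, without the filter, the median log2 difference was 1.64 beside -0.01 for all genes. By voom-limma on all 38 libraries this median was 2.93 beside 0.08.

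**Figure D3:**
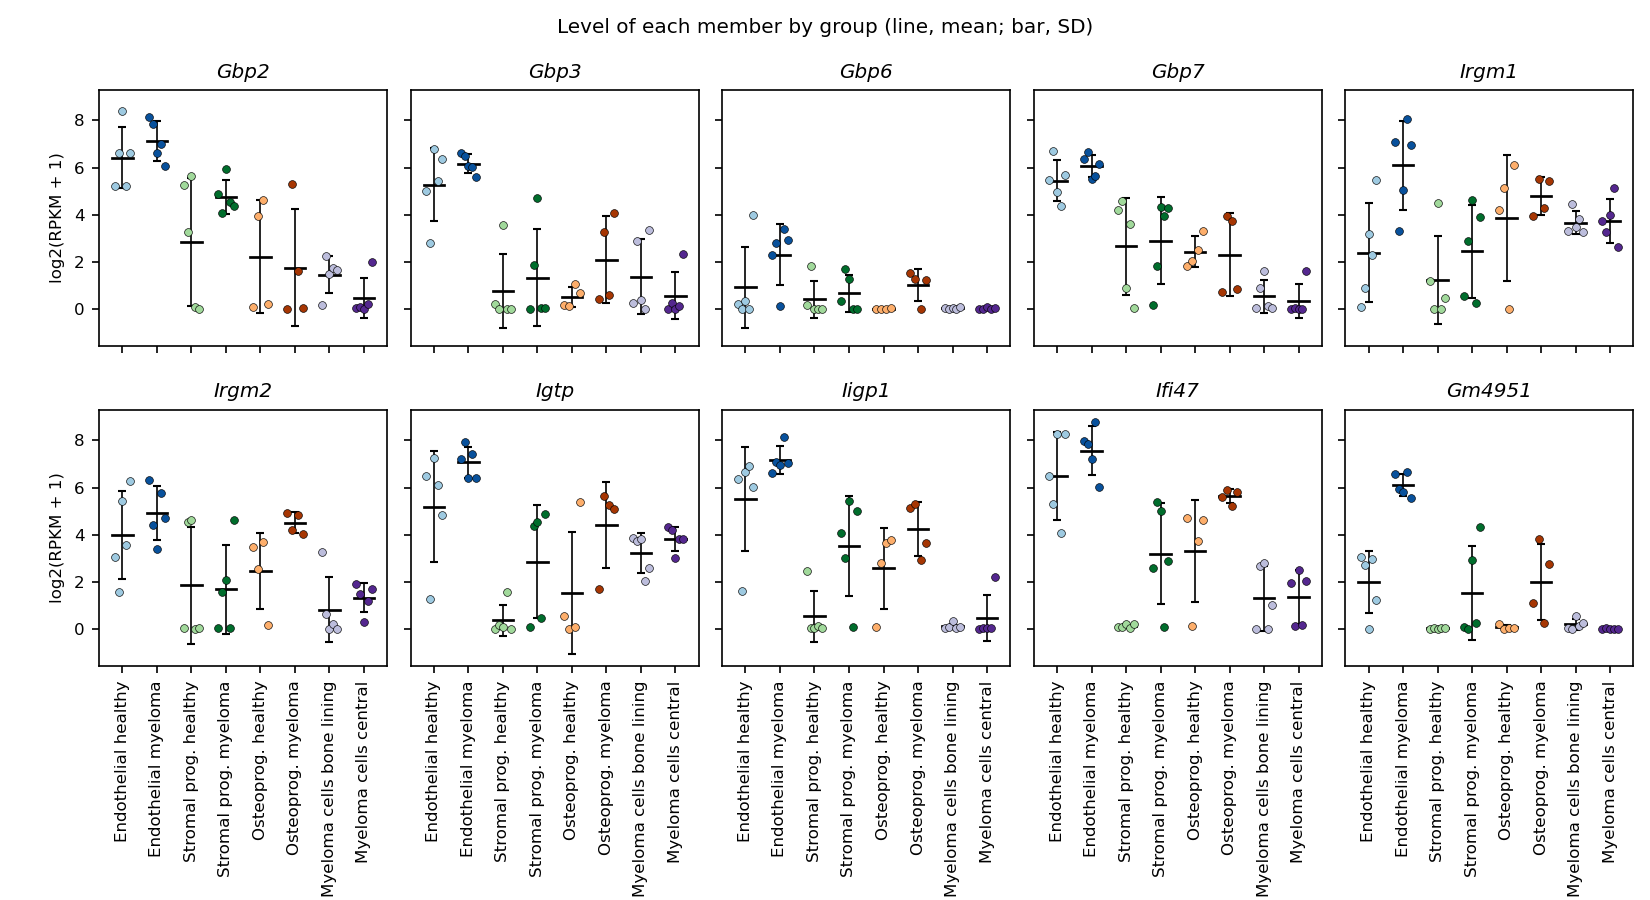
Each panel shows 1 member in the 8 groups, with log2(RPKM + 1) on the y axis, 1 point a library, the mean as a line and the SD as a bar (n = 4 or 5). The endothelial points of Gm4951 separate by condition, whereas those of Gbp2, Gbp3 and Gbp7 overlap.

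The number of members above 1 RPKM in a library summarises these patterns. In endothelial cells it was 8, 8, 8, 9 and 10 in healthy mice and 10, 10, 9, 10 and 10 in myeloma-bearing mice. In stromal progenitors it was 4, 4, 4, 2 and 0 in healthy libraries C, L, M, N and O and 3, 9, 10, 2 and 8 in libraries D, E, G, I and J of myeloma-bearing mice. Libraries D and I therefore lay within the healthy range and E, G and J above it. In osteoprogenitors it was 4, 5, 6 and 5 in healthy and 7, 10, 7 and 8 in myeloma-bearing mice, with no overlap. The same count over all genes is not given, so general detection in a library cannot be told apart from a pattern of the members. A letter was not low throughout: library I was the lowest of the stromal progenitors of myeloma-bearing mice but the highest of the endothelial libraries for Irgm1, Iigp1, Ifi47 and Gm4951. Endothelial library I also had the highest sum of the 6 macrophage markers in the table among endothelial libraries, 264 RPKM, with the list split between genes that were present and genes near 0. In endothelial libraries of myeloma-bearing mice Cd68 reached 149, Cd14 115 and Lyz2 69.9 RPKM, and Csf1r, Emr1 and C1qb at most 0.00748, 0.0171 and 0.0578. In healthy endothelial libraries Cd68 reached 24.3, Cd14 52.1 and Lyz2 0.108 RPKM. Their part in the result was not tested.

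**Figure D4:**
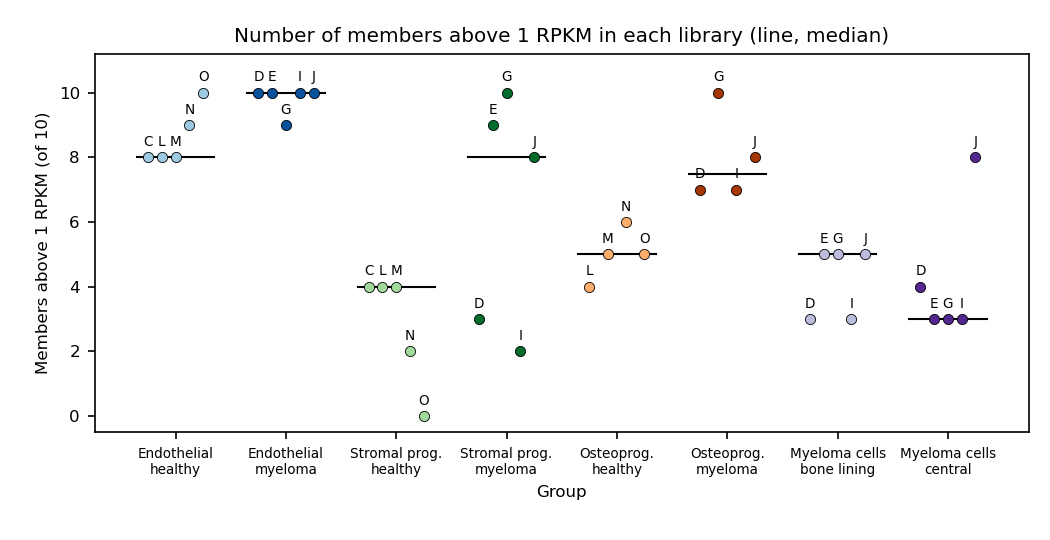
Number of the 10 members above 1 RPKM (y axis) in each library, by group, with the replicate letter above each point and the group median as a line. Osteoprogenitors of myeloma-bearing mice lie at 7 to 10 and healthy ones at 4 to 6, and stromal progenitors of myeloma-bearing mice split into 2 to 3 and 8 to 10. The same count over all genes is not shown.

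The change was also averaged over the 3 niche cell types in 1 fit of the 28 niche libraries, a comparison added after the values had been seen. This fit took the libraries as independent, although the same letters recur across the cell types. All 10 members were tested and 1 was called, Gm4951, against 0.0342% of 11713 genes called higher and 0.0171% lower. Its average log2 difference was 2.51 ± 0.50 (95% interval 1.49 to 3.52, limma adjusted p = 0.047). The call was lost without endothelial library I of myeloma-bearing mice, healthy stromal progenitor libraries N or O, healthy osteoprogenitor library O, or osteoprogenitor libraries G or J of myeloma-bearing mice, and the adjusted p over all libraries left out ran from 0.032 to 0.15. Igtp (2.44 ± 0.68), Ifi47 (2.17 ± 0.56), Iigp1 (2.11 ± 0.59) and Irgm1 (1.95 ± 0.70) did not pass the adjusted threshold (limma adjusted p = 0.456, 0.292, 0.456 and 0.785), and the GBPs were at 0.25 (Gbp7) to 1.01 (Gbp3). By voom-limma on all 38 libraries 2 members were called for the average, Gm4951 and Igtp, against 0.415% of genes called higher, and Gbp6 was at 3.88 ± 1.18.

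**Figure D5:**
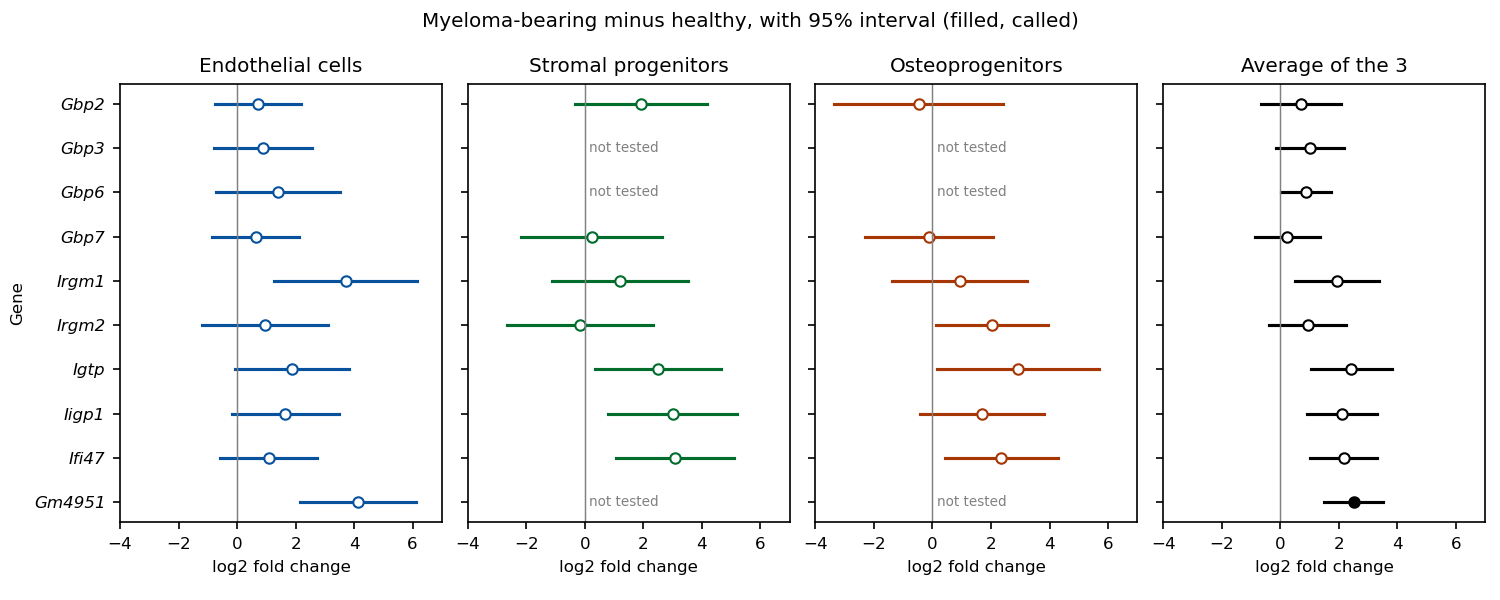
Log2 fold change (x axis) of each member, myeloma-bearing minus healthy, with its 95% interval from limma, in endothelial cells, stromal progenitors, osteoprogenitors and averaged over the 3. All 10 points lie above 0 in endothelial cells, and the only called value is the average of Gm4951 (filled).

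Whether the change differed between cell types was tested as an interaction. No member was called in any of the 3 tests, and of the 3 sets of 10 members 1 had an unadjusted p under 0.05, Gm4951 in endothelial cells against stromal progenitors (difference of the changes 2.64, 95% interval 0.08 to 5.21, limma adjusted p = 0.942). For Ifi47 the difference of the changes in the same test was -2.0, with an interval of -4.75 to 0.76, and for Irgm1 it was 2.50, from -0.93 to 5.93. By voom-limma of the same libraries Gm4951 was at 1.53, no longer under an unadjusted p of 0.05, and Ifi47 at -5.25, and the median of the 10 members turned from 0.36 to -0.70. These intervals are wide, and the tests do not show that the cell types responded alike. Genes called in the 3 tests were 0 of 10596, 0 of 10756 and 0 of 10735, with 552, 516 and 437 at an unadjusted p under 0.05, and voom-limma called no member in any of them.

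Of the other pathway genes, none was called in any niche cell type, and none of 10 interferon ligand genes was in the table analysed. In endothelial cells the STAT and IRF list had 11 of 11 tested genes above 0, with a median log2 difference of 1.27 beside 0.07 for all genes. Irf7, an interferon-induced transcription factor, was at 22.8 ± 27.6 RPKM in healthy and 134 ± 104 in myeloma-bearing mice (SD, n = 5 each; log2 difference 3.72 ± 1.16, limma adjusted p = 0.821). Of the other GTPases, 8 of 8 were above 0, led by Mx2, an antiviral dynamin-like GTPase, with at most 0.0235 RPKM in healthy and 2.91 to 107 RPKM in myeloma-bearing endothelial libraries (5.06 ± 1.12, limma adjusted p = 0.479). Mx2 passed the filter through the myeloma-bearing libraries alone, which fixed its sign. Usp18, the protease that removes ISG15 and dampens type I interferon signalling, differed by 2.55 ± 1.11, whereas 5 of 7 receptor and kinase genes were below 0, with a median of -0.45.

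In stromal progenitors 7 of 8 STAT and IRF genes were above 0 (median 0.82), with Irf1 at 2.24 ± 0.66, and the feedback list had 7 of 7 above 0 (median 0.31), with Usp18 at 3.52 ± 1.18 (log2, SE; limma adjusted p = 0.811 for each). In osteoprogenitors 7 of 9 STAT and IRF genes were above 0 (median 1.15), and Irf2 (2.14 ± 0.89) and Irf3 (-2.15 ± 0.96) lay on opposite sides. Casp1, an inflammasome protease from the list of GBP effector partners, was at 3.31 ± 0.96 in osteoprogenitors, while that list as a whole had a median of -0.53. Gsdmd, the pore-forming target of those proteases, was at 3.26 ± 1.22 in endothelial cells.

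Genes whose pattern was most like that of the members were found over the 28 niche libraries, with each gene centred on the mean of its cell type. Of 11713 genes, the 5 non-members with the highest Spearman correlation with the mean of the members were Cxcl9 (rho = 0.747), Ifit1 (0.738), Ifi44 (0.709), Timeless (0.696) and Ints5 (0.683), as a description over libraries that share cell type and condition. Cxcl9, an interferon-induced chemokine, averaged 39.2 ± 40.2 and 168 ± 87.6 RPKM in endothelial cells of healthy and myeloma-bearing mice, and 1.62 ± 3.40 and 50.7 ± 44.8 in stromal progenitors (SD, n = 5 each). Ifit1 and Ifi44 are also interferon-induced genes, Timeless protects replication forks, and Ints5 is a subunit of Integrator. Within the members, the correlation of each with the mean of the other 9 ran from 0.215 (Gbp7) and 0.219 (Gbp2) to 0.705 (Irgm1), so those 2 GBPs followed the group least.

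Myeloma cells carried few of these transcripts. Bone lining myeloma cells were compared with endothelial cells of myeloma-bearing mice, and 10 of 10 members were called lower in myeloma cells, against 17.1% of 9207 genes, with 24.4% called higher. Gbp6, Iigp1 and Gm4951 exceeded 1 RPKM in no bone lining library. They passed the filter through the endothelial libraries in which they are high, which set their direction. Without the filter the count was also 10 of 10, against 12.3% of 13089 genes lower. The log2 differences ran from -2.27 ± 0.57 (Gbp6) to -7.08 ± 0.49 (Iigp1; limma adjusted p = 3.3e-07). For 9 members the ranges did not overlap, against 11.5% of genes in this direction. Iigp1 had at most 17 reads in any bone lining myeloma library, 0.24 RPKM, where the lowest endothelial library had 96.3 RPKM. By voom-limma of the recovered reads 9 members were called (15.9% of genes lower, and 13.3% on all 38 libraries, where 9 were called too) and Irgm1 was not. When each of the 10 libraries was left out in turn, Gbp6 was called in 6 refits and the other 9 members in all.

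The exceptions in myeloma cells were the regulators Irgm1 and Igtp, which were present in every library. Irgm1 measured 8.82, 21, 10.2, 12.9 and 8.54 RPKM in bone lining libraries D, E, G, I and J and 12.4, 8.49, 14.6, 34.4 and 5.10 in the central bone marrow libraries. Igtp measured 13.5, 12.2, 13.2, 3.04 and 4.96 RPKM in the bone lining and 18.7, 17.3, 7.13, 13 and 12.8 in the central bone marrow. The 2 sites overlapped for both genes. Irgm1 was the member whose range overlapped endothelial cells, through endothelial library E at 8.93 RPKM, and it differed by -2.43 ± 0.80 (log2, SE; limma adjusted p = 0.031).

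Between bone lining and central bone marrow myeloma cells, 5 members passed the filter and limma called 0, against 0.147% of 8857 genes called higher and 0.0565% lower. At an unadjusted p under 0.05 there were 0 members and 530 genes. By voom-limma of the same libraries 0 members were called, against 0.0727% of genes higher and 0.0104% lower. The differences were -0.08 (95% interval -1.02 to 0.85) for Irgm1, -0.62 (-1.54 to 0.29) for Igtp, -0.50 (-1.74 to 0.75) for Irgm2, -0.06 (-1.46 to 1.34) for Ifi47 and 0.99 (-0.07 to 2.05) for Gbp2. Central bone marrow library J stood apart, with 8 members above 1 RPKM against 3 or 4 in the other 4 libraries. It held Gbp2 at 2.98, Gbp3 at 4.02, Gbp7 at 2.08 and Iigp1 at 3.61 RPKM, where the other central libraries had at most 0.143, 0.196, 0.00666 and 0.0237. The 7 endothelial markers summed to 4.38 to 23.8 RPKM in central bone marrow libraries, of which Pecam1 was 2.77 to 23.2, and the other 6 ran from at most 0.0172 (Kdr) to at most 0.834 (Selp). The macrophage marker C1qb reached 3.17 RPKM there, and the part of other cells in the values of library J was not tested.

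Other GTPases and pathway genes of myeloma cells were not uniformly low, where 17.1% of all genes were called lower and 24.4% higher. Of 10 other GTPases tested against endothelial cells, 6 were called lower, among them Mx2 (-4.84 ± 0.82) and Tgtp1 (-2.84 ± 0.56), and 1 higher, Gbp8 (3.29 ± 0.91). Mx2, Tgtp1 and Tgtp2 were at most 0.874, 0.378 and 0.529 RPKM in bone lining myeloma cells and passed the filter through the endothelial libraries alone. Gbp8 was at 12.2 to 34.8 RPKM in bone lining myeloma cells and at 0 to 25.5 RPKM in endothelial cells of myeloma-bearing mice, so that these groups overlapped. Of 12 STAT and IRF genes 7 were called lower, including Irf7 (-5.15 ± 0.68), and 1 higher, Irf5 (1.33 ± 0.44). Irf5, at most 0.498 RPKM in endothelial cells of myeloma-bearing mice, passed the filter through the myeloma cell libraries alone, which set its direction. Irf8 and Batf2, at most 0.0468 and 0.155 RPKM in bone lining myeloma cells, passed it through the endothelial libraries alone. Jak1 (-5.20 ± 0.59) and Ifngr1, a chain of the interferon gamma receptor (-3.20 ± 0.64), were the 2 of 7 receptor and kinase genes called lower.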

How the data were processed

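RNA-Seq libraries of 100 sorted cells (SmartSeq2) had been aligned by the authors with STAR to GRCm38/mm10 and counted per gene with featureCounts. The deposited values are RPKM, which the authors made with edgeR for genes that passed their filter on low counts. Reads were recovered from the RPKM steps for 13260 of 13260 genes (100% whole within 0.0001 reads), and 0 columns were left unused. Groups followed the labels. The tests were limma 3.58.1 (R 4.3.3; trended variance) on log2(RPKM + 1), which understates the change of low genes, and voom-limma of the recovered reads as an alternative; other alternatives are in the closing section. The scripts were tested on simulated data. Genes named were the members, list genes called or among the 3 largest differences of their list in a niche comparison, and the 5 non-members most like the members. The rule allowed promoters of 2 or 3 members; those of all 6 with an ISRE core were printed, chosen after the matches were seen. The members and lists were chosen with earlier results of these data known. Promoter windows came from RefSeq (GRCm38.p6) and loci from GENCODE. Intervals cover the spread between libraries only. A result for 1 gene is not reported here.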

Additional observations from a re-analysis of the deposited data

Results flagged for a closer look

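Of 80 sets of 4 or 5 libraries (10 members in 8 groups), 19 held a library that stood apart from the rest of its group by Dixon's criterion on log2(RPKM + 1), where chance flags about 1 in 20. No difference between cell types was flagged.

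Central bone marrow library J was the high library for Gbp2 (2.98 RPKM), Gbp3 (4.02), Gbp7 (2.08) and Iigp1 (3.61). In the same group Gbp6 stood apart in library G at 0.0559 RPKM and Gm4951 in E at 0.014 RPKM, which are 5 reads and 1 read. In bone lining myeloma cells, Irgm2 was high in library D (8.62 RPKM) and Iigp1 in G (0.24).

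In healthy stromal progenitors the high libraries were M for Gbp3 (10.9 RPKM) and Irgm1 (21.3), L for Gbp6 (2.54), N for Igtp (1.92) and C for Iigp1 (4.45). In healthy endothelial cells Gbp6 was high in library O (15.0 RPKM) and Iigp1 low in L (2.08). In healthy osteoprogenitors Igtp was high in library O (40.7 RPKM), Gbp6 in O (0.0126, 1 read) and Gm4951 in L (0.148, 5 reads). In osteoprogenitors of myeloma-bearing mice Igtp was low in library D (2.24 RPKM).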

How the results depend on the processing

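The count of members called moved by over 1.5 times, or from 0, in these settings, and the cause was not tested. With all 38 libraries in 1 fit it was 2 for endothelial cells and 7 for healthy endothelial cells against osteoprogenitors. By voom-limma on all 38 libraries it was 1 for endothelial cells and 2 for the average change. By voom-limma on the libraries compared it was 4 for healthy endothelial cells against stromal progenitors and 1 against osteoprogenitors. Smaller moves were to 5 without the filter and to 8 by voom-limma on all 38 libraries for healthy endothelial cells against stromal progenitors, to 4 by the latter against osteoprogenitors, and to 9 by both voom-limma fits for bone lining myeloma cells. Leaving out 1 library at a time gave 0 to 3 for the average change, 9 to 10 for bone lining myeloma cells, 4 to 6 and 2 to 6 for healthy endothelial cells against stromal progenitors and osteoprogenitors, and 0 in the other comparisons. The log2 difference of Irgm2 in stromal progenitors turned to 0.34 with a pseudocount of 0.1 and 1.18 by voom-limma. With 1 library left out, values that changed sign ran from -0.42 to 0.92 (Gbp7) and -0.91 to 0.52 (Irgm2) in stromal progenitors, and from -1.18 to 0.11 (Gbp2), -0.67 to 0.4 (Gbp7) and -0.36 to 1.67 (Irgm1) in osteoprogenitors. The replicate letter as a replicate block left 7, 3, 10 and 0 members called, with no pairing given in the labels and same-letter correlations of -0.049 to 0.145; healthy and myeloma-bearing groups share no letter. The quasi-likelihood count test planned as an alternative was not run. Leaving out both stromal progenitor libraries with neutrophil markers, and the average change, were chosen after seeing the data. Depth limits values of a few reads, and 4 or 5 libraries a group limit the rest.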
